A study of Mus musculus with 4 samples.

Results

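The osteoclast effector genes are 10 genes whose products carry out or control bone resorption, taken by symbol from a fixed list: Acp5, Ctsk, Mmp9, Calcr, Dcstamp, Ocstamp, Atp6v0d2, Oscar, Nfatc1 and Tnfrsf11a. All 10 were found among the 47069 gene identifiers of the FPKM table of mBMSCs, the stromal cells that grow out of mouse bone marrow. The groups compared were GA plus DEX (2 libraries), which received 50 μM GA (ginkgolic acid, a sumoylation inhibitor) and 1 μM DEX (dexamethasone, a synthetic glucocorticoid), and DMSO plus DEX (2 libraries), which received the solvent and the same DEX, both for 3 days. Both groups were first-passage cells of wild-type C57BL/6J mice aged 8 weeks, and both carried DEX, so every difference is between GA and its solvent in the presence of DEX. The cells were the adherent fraction of tibia and femur marrow. No sort by cell type and no addition of RANK ligand or CSF1 is described for these cultures. The sources used here do not say that replicate libraries stem from different animals or dishes, and p-values then measure only the spread between libraries, which may be technical.

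Osteoclasts are large cells with many nuclei that form when precursors of the macrophage lineage fuse, and they dissolve bone by secreting acid and proteases onto its surface. Stromal cells and osteoblasts supply the signals: CSF1 keeps the precursors alive, and RANK ligand (gene Tnfsf11) binds the receptor RANK (Tnfrsf11a), while osteoprotegerin (Tnfrsf11b) is a decoy that captures the ligand. Together with receptors that signal through the adaptors DAP12 (Tyrobp) and FcRγ (Fcer1g), among them OSCAR, RANK raises calcium and activates NFATC1, the transcription factor that switches on the resorption genes. Cultures of adherent marrow cells commonly carry macrophages along with stroma.

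FPKM, fragments divided by gene length and by library depth, makes levels comparable between genes per length. The number of reads behind the values was 21559951 and 24611800 in GA plus DEX, and 31069538 and 25717834 in DMSO plus DEX. Whole reads could be recovered for all 23404 genes above 0, and for genes with few reads such counts are the smallest that fit. Change was tested with limma on log2(FPKM + 1) over the 12174 genes that averaged 1 FPKM or more, at an adjusted p under 0.05. The log2 fold change on this scale understates low genes, and a fold is the ratio of mean FPKM values. Since the median gene tested was 0.19 higher in GA plus DEX, calls were also made with every library shifted to one median.

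Stromal transcripts were abundant, as the label of the cells says, and macrophage transcripts were present in every library. Col1a1, the main collagen of bone and stroma, was at 19240 and 23025 FPKM in GA plus DEX and at 50266 and 46072 in DMSO plus DEX. Of 22 macrophage markers none was at 0 throughout, 17 of the 20 tested were higher in GA plus DEX and none was lower (12 and none after the shift), where 46.3% of all genes tested were called higher, and 19.5% after the shift. Among the 17 was Aif1, which passed the minimum only through GA plus DEX and could only be higher. Their summed FPKM was 5679 and 4931 in GA plus DEX, against 4137 and 3903 in DMSO plus DEX. Cx3cr1 stayed under 1 FPKM in all libraries. In bulk RNA, more cells of a type and more RNA per cell cannot be told apart, and the part of the macrophage markers in the results on osteoclast genes was not tested.

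Since NFATC1 binds a short core sequence, the start regions of the effector genes are shown first. Promoters of 5 of the 10 genes (8 start sites) were matched by symbol in RefSeq on GRCm38.p6, running from 250 bases before the start to 50 bases into the gene: those of Acp5, Calcr, Ctsk, Oscar and Tnfrsf11a. The NFAT core GGAAA, read on both strands and so also as TTTCC, was searched in them and stands in 61.3% of all 32851 promoters of this length. Shown are 1 gene with 4 matches (Oscar, on the minus strand at chr7:3616108-3616407), 1 with 2 matches at one of its starts (Acp5, minus strand, chr9:22130549-22130848), 1 with a single match (Ctsk, plus strand, chr3:95498960-95499259) and 1 with none (Tnfrsf11a, plus strand, chr1:105780473-105780772), with the core in capitals.
Oscar: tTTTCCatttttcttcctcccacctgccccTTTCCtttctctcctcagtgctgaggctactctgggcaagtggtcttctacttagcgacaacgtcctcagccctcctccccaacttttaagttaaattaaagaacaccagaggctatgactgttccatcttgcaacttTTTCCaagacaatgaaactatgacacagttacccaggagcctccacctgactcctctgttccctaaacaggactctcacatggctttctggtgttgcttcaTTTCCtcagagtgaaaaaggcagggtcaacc
Acp5: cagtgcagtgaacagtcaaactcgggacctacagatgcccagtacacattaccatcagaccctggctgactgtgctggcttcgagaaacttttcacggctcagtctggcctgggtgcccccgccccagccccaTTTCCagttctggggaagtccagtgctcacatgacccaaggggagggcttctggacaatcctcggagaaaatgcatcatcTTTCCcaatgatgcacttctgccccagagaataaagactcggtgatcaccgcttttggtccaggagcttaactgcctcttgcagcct
Ctsk: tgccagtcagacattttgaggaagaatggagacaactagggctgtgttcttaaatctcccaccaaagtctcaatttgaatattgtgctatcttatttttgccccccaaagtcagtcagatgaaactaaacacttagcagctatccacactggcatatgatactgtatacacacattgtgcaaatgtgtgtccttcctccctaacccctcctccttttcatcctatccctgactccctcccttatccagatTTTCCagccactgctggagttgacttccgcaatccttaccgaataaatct
Tnfrsf11a: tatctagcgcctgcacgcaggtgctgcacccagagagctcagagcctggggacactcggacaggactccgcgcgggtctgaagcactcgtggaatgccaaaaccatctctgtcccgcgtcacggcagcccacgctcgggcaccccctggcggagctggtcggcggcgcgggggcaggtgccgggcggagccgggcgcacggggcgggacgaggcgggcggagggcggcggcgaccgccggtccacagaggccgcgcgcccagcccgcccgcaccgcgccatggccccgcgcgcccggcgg
Counted from the start as position 0, the matches began at -249, -220, -82 and 19 in Oscar, at -117 and -37 in Acp5 and at 0 in Ctsk. The other starts of Acp5 held 1 match each, and those of Calcr 1 and 0. The core GAGGAA, bound by the myeloid factor PU.1 and read on both strands, overlaps GGAAA where its next letter is A. It occurred 2 times each in Oscar and Ctsk, in none of the others, and in 28.3% of all promoters. The E-box CACGTG or CATGTG (both strands), a site type used by MITF, stood once in Oscar and once in the Acp5 promoter shown, and in 20.4% of all promoters. No AP-1 site TGANTCA was in any of the 8, and 7.81% of all promoters hold one. These matches describe the letters of a window and are not bound sites.

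Across the 10 genes, 8 of the 9 tested were higher and none was lower, where 46.3% of all 12174 genes tested were called higher and 11.9% lower. After the shift 8 were higher and 1, Nfatc1, was lower, with 19.5% of all genes called higher and 27.9% lower. Because 3 of the 9 entered the test only through GA plus DEX, these counts are a description. Among the 6 with a mean of at least 1 FPKM in both groups (Acp5, Ctsk, Mmp9, Atp6v0d2, Nfatc1 and Tnfrsf11a), 5 were higher, with a median log2 fold change of 1.27, and among all 11696 such genes 45.9% were higher, with a median of 0.18. After the shift 5 of the 6 were higher and 1 lower (median 1.04), while of all such genes 18.6% were higher and 28.4% lower (median -0.05).

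The secreted enzymes of resorption were all higher in GA plus DEX, by very different amounts. Mmp9, a gelatinase that osteoclasts secrete into the matrix (ENSMUSG00000017737), had 416 and 412 FPKM in GA plus DEX, against 43.1 and 39.4 FPKM in DMSO plus DEX. The groups lay far apart and the libraries of each nearly coincided, a 10.0-fold difference in means (3.30 ± 0.06 (SE) on the log2 scale, limma adjusted p = 3.01e-08). Acp5, tartrate-resistant acid phosphatase (ENSMUSG00000001348), the enzyme by which osteoclasts are stained, had 152 and 132 FPKM in GA plus DEX and 24.5 and 26.3 FPKM in DMSO plus DEX. Both GA libraries were again above both DMSO libraries, 5.61-fold (2.44 ± 0.08 (SE) on the log2 scale, limma adjusted p = 3.63e-07). Ctsk, cathepsin K, which cleaves bone collagen (ENSMUSG00000028111), had 338 and 304 FPKM in GA plus DEX and 231 and 219 FPKM in DMSO plus DEX. It was the most abundant of the 10 genes in DMSO plus DEX and rose the least of the 3 enzymes, 1.43-fold (0.51 ± 0.07 (SE) on the log2 scale, limma adjusted p = 6.80e-04). After the shift the change of Ctsk was 0.28 (adjusted p = 0.0153). Cathepsin K is also made by some mesenchymal cells.
Mmp9 and Ctsk changed places in rank between the groups: Mmp9 was the higher in both GA libraries, and Ctsk was more than 5 times Mmp9 in both DMSO libraries. Mmp9 was 61st and Acp5 116th among the 12174 genes ordered from the highest log2 fold change down, while Ctsk was 2003rd.

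**Figure D1:**
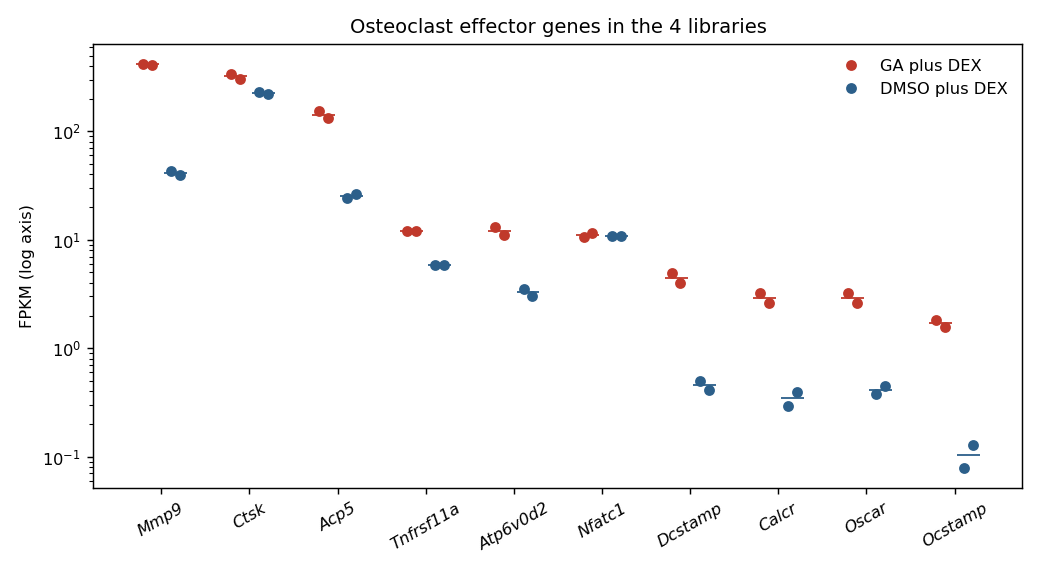
FPKM of the 10 osteoclast effector genes (log axis, ordered by the GA plus DEX mean) in the 2 GA plus DEX libraries (red, left of each pair) and the 2 DMSO plus DEX libraries (blue). Points are libraries and bars are means. The points overlap only for Nfatc1, at 10.7 and 11.5 FPKM in GA plus DEX and 10.8 and 10.9 FPKM in DMSO plus DEX.

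Atp6v0d2, the subunit of the proton pump (V-ATPase) that is characteristic of osteoclasts and also needed for fusion (ENSMUSG00000028238), had 13.1 and 11.0 FPKM in GA plus DEX, against 3.49 and 3.04 FPKM in DMSO plus DEX. It was 3.69-fold higher without overlap of the groups (1.61 ± 0.10 (SE) on the log2 scale, limma adjusted p = 1.10e-05). Its widely expressed counterpart Atp6v0d1 was far more abundant and near level, at 126 and 125 FPKM in GA plus DEX and 126 and 123 FPKM in DMSO plus DEX (log2 fold change 0.01, adjusted p = 0.825, and -0.22, adjusted p = 0.0129, after the shift). Among 18 tested of 22 other subunits and accessory proteins, 8 were higher and 2 lower, where 46.3% and 11.9% of all genes tested were. Their median log2 fold change was 0.19, beside the 0.19 of all genes. After the shift 4 were higher and 4 lower, where 19.5% and 27.9% of all genes tested were. Both counts as deposited changed when single libraries were left out. The largest rises were those of Atp6v1g2 (1.90-fold), Atp6v1b2 (1.61-fold) and Atp6v0a1 (1.56-fold), and the lower ones were Atp6v0b and Atp6v0a2 (1.19-fold and 1.17-fold lower in GA plus DEX). Tcirg1, the a3 subunit that osteoclast acid secretion depends on, was 0.11 higher on the log2 scale, short of the threshold (adjusted p = 0.13).

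The other genes of acid secretion and the ruffled border ranged from a large rise to a fall. Of 14 genes 13 were tested, 7 were higher and 1 lower, with a median of 0.17 (5 higher and 3 lower after the shift). Among all genes tested 46.3% were called higher and 11.9% lower (median 0.19), and 19.5% and 27.9% after the shift. Tm4sf19, a membrane protein found in osteoclasts, had 8.45 and 6.66 FPKM in GA plus DEX and 0.896 and 0.711 FPKM in DMSO plus DEX, 9.40-fold. Car2, carbonic anhydrase II, which supplies the protons, was at 3.29 and 2.85 FPKM in GA plus DEX and 0.386 and 0.681 FPKM in DMSO plus DEX, 5.75-fold. Snx10, a sorting protein needed for the ruffled border, rose 2.10-fold. Clcn7, the chloride transporter that accompanies the pump, was at 65.4 and 64.0 FPKM in GA plus DEX and 59.2 and 58.5 FPKM in DMSO plus DEX, short of the threshold (adjusted p = 0.057). Lamp1 (adjusted p = 0.127), the most abundant of the list, did not pass either. Src, the kinase that organizes the resorbing membrane, was lower (log2 fold change -0.28, adjusted p = 0.00591). Tm4sf19 and Car2 passed the minimum FPKM through their level in GA plus DEX, where they could only be higher.
Other proteases gave a mixed picture, with 4 higher, 4 lower and 4 not passing of 12 tested out of 13 (median 0.02, and 1 higher and 7 lower after the shift). Beside these stand 46.3% higher and 11.9% lower over all genes tested, and 19.5% and 27.9% after the shift. Mmp13, a collagenase, was 1.87-fold higher in GA plus DEX. Mmp2, the other gelatinase, had 249 and 278 FPKM in GA plus DEX and 455 and 459 FPKM in DMSO plus DEX, 1.73-fold lower, opposite to Mmp9. Mmp14, which activates pro-Mmp2 at the cell surface, was 1.71-fold lower, and the lysosomal cathepsins Ctsh and Ctsl were 1.48-fold and 1.33-fold lower. Ctsb and Acp2, a lysosomal acid phosphatase, were 1.30-fold and 1.28-fold higher, but neither passed after the shift (adjusted p = 0.119 and 0.122). Ctsd and the cathepsin inhibitor gene Cst3, the most abundant that did not pass, had adjusted p = 0.124 and 0.94, and Ctsd was called lower after the shift (adjusted p = 0.0049).

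The genes of the fusion proteins were scarce in DMSO plus DEX. Dcstamp, DC-STAMP, a membrane protein without which precursors do not fuse (ENSMUSG00000022303), had 4.957 and 3.996 FPKM in GA plus DEX, against 0.501 and 0.410 FPKM in DMSO plus DEX. These stand for at least 213 and 196 reads in GA plus DEX and 31 and 21 in DMSO plus DEX, and the means differed 9.83-fold (1.91 ± 0.12 (SE) on the log2 scale, limma adjusted p = 1.45e-05). Ocstamp, its partner OC-STAMP (ENSMUSG00000027670), had 1.83 and 1.58 FPKM in GA plus DEX and 0.0792 and 0.128 FPKM in DMSO plus DEX, from at least 144 and 142 reads in GA plus DEX and 9 and 12 in DMSO plus DEX. It was the least abundant of the 10 and had the largest ratio of means, 16.5-fold. With a mean of 0.903 FPKM Ocstamp missed the minimum of the test by a little. In the fit with no minimum its log2 fold change was 1.29 (standard error 0.09, adjusted p = 0.00202 from limma).
General fusion genes changed in both directions. Of 14 tested out of 16, 7 were higher and 3 lower (median 0.25), and 5 and 6 after the shift. For comparison, limma called 46.3% of its 12174 genes higher and 11.9% lower (median 0.19). With the shift, these shares were 19.5% and 27.9%. Itgb3, the integrin β3 chain that marks osteoclasts, had 7.73 and 7.64 FPKM in GA plus DEX and 2.68 and 2.44 FPKM in DMSO plus DEX, 3.00-fold (adjusted p = 1.22e-05). For its partner Itgav the log2 fold change was -0.04 (adjusted p = 0.474), although it was called lower after the shift (-0.28, adjusted p = 0.00338). Cd200r1 and Cd47 rose 1.74-fold and 1.53-fold. Cd200, Tnfrsf12a and Myo10 were 1.39-fold, 1.36-fold and 1.27-fold lower. The tetraspanin gene Cd9, abundant at 182 and 172 FPKM in GA plus DEX and 192 and 188 FPKM in DMSO plus DEX, did not pass (adjusted p = 0.17), but was called lower after the shift (adjusted p = 0.00251).

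Of the receptor genes, that of RANK was present in both groups, and those of OSCAR and the calcitonin receptor were under 1 FPKM in DMSO plus DEX. Tnfrsf11a (ENSMUSG00000026321) had 12.1 and 12.1 FPKM in GA plus DEX and 5.83 and 5.87 FPKM in DMSO plus DEX, with almost no spread in either group. The difference was 2.07-fold (0.93 ± 0.06 (SE) on the log2 scale, limma adjusted p = 2.02e-05). Oscar, the collagen-sensing co-receptor (ENSMUSG00000054594), had 3.21 and 2.59 FPKM in GA plus DEX, against 0.375 and 0.453 FPKM in DMSO plus DEX. It was 7.005-fold higher (1.46 ± 0.13 (SE) on the log2 scale, limma adjusted p = 6.77e-05). Behind these values stood at least 101 and 93 reads in GA plus DEX and 17 and 17 in DMSO plus DEX. Calcr, the receptor through which calcitonin halts resorption (ENSMUSG00000023964), had 3.21 and 2.64 FPKM in GA plus DEX and 0.296 and 0.395 FPKM in DMSO plus DEX, or at least 211 and 198 reads in GA plus DEX and 28 and 31 in DMSO plus DEX. It was 8.46-fold higher (1.54 ± 0.13 (SE) on the log2 scale, limma adjusted p = 5.09e-05). Calcr, Oscar and Dcstamp reached the minimum FPKM of the test only through their level in GA plus DEX, so among tested genes they could not have been lower.
On the ligand side, Tnfsf11 had 1.85 and 0.818 FPKM in GA plus DEX and 0.302 and 0.243 FPKM in DMSO plus DEX. That was too low for the test. With no minimum Tnfsf11 did not pass (log2 fold change 0.84, standard error 0.23, limma adjusted p = 0.0656). Tnfrsf11b had 4.59 and 4.21 FPKM in GA plus DEX and 8.098 and 8.403 FPKM in DMSO plus DEX. It was 1.87-fold lower in GA plus DEX (limma adjusted p = 1.23e-04). Csf1 did not pass (adjusted p = 0.215, and -0.32 on the log2 scale with adjusted p = 0.00227 after the shift), while Il34, the second ligand of the CSF1 receptor, rose 2.07-fold and the receptor gene Csf1r 1.87-fold. Of all 22 genes from the ligands to the kinases and NF-κB and AP-1 factors, 21 were tested, 11 were higher and 3 lower (median 0.20), and 5 and 9 after the shift. Without DMSO plus DEX replicate 2, 7 were higher. Over all genes tested, 46.3% were called higher and 11.9% lower (median 0.19), and 19.5% and 27.9% after the shift. Fos, required for osteoclast formation, rose 1.79-fold. Fosl2 and Ikbkg were 1.25-fold and 1.16-fold lower. The abundant Junb did not pass (adjusted p = 0.628), but was called lower after the shift (adjusted p = 0.0147).
Of 13 genes of the ITAM costimulatory path, all tested, 8 were higher and none was lower (median 0.52), and 7 and none after the shift. The share of all genes tested that was called higher was 46.3%, and 19.5% after the shift. The adaptor genes Tyrobp and Fcer1g rose 1.44-fold each, Lcp2 (SLP-76) 1.94-fold, and the kinase gene Btk and the exchange factor gene Vav3 1.91-fold and 1.90-fold. Lyn (adjusted p = 0.19) and Gab2 (adjusted p = 0.0524) did not pass. Macrophages express these genes as well, and their marker sums are given above.
The relatives of the calcitonin receptor divided. Calcrl, which forms receptors for calcitonin gene-related peptide and adrenomedullin, rose 2.53-fold, having passed the minimum only through GA plus DEX. Ramp2, the accessory protein that makes it an adrenomedullin receptor, had 20.7 and 20.2 FPKM in GA plus DEX, against 3.29 and 2.77 FPKM in DMSO plus DEX (6.75-fold, adjusted p = 5.06e-07). Ramp1 (1.94-fold) and Adm, adrenomedullin (1.64-fold), were lower in GA plus DEX. Of the 7 relatives 4 were tested, 2 higher and 2 lower, also after the shift, with a median of 0.09. Ramp3 was listed at 0 in both DMSO libraries and at 0.0723 and 0.0317 FPKM in GA plus DEX.

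**Figure D2:**
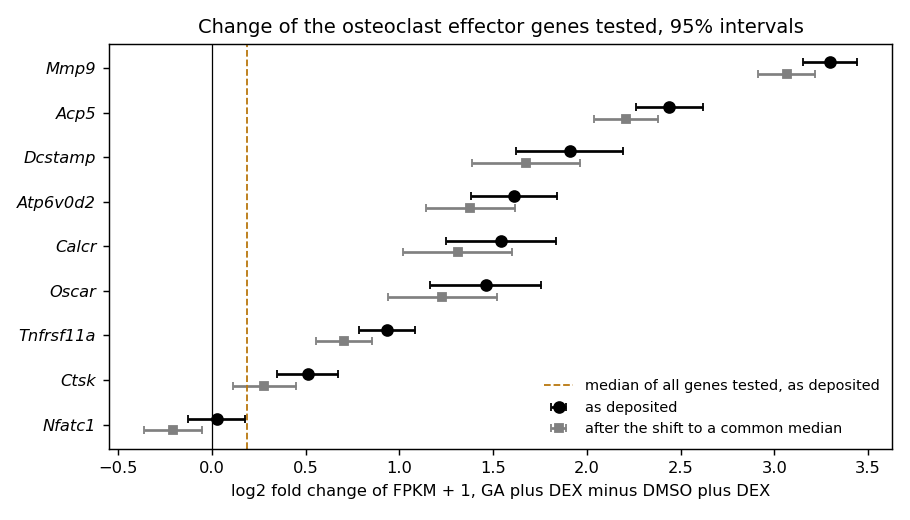
Log2 fold change of FPKM + 1, GA plus DEX minus DMSO plus DEX, for the 9 osteoclast effector genes tested, with 95% intervals from limma, as deposited (black circles) and with all libraries shifted to one median (grey squares). The dashed line is the median of all genes tested, 0.19. Nfatc1 lies at 0.02 as deposited and at -0.21 after the shift, and the other 8 lie above 0 on both scales.

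Nfatc1, the gene of the master factor (ENSMUSG00000033016), was the 1 gene of the 9 tested that was not called higher. It had 10.7 and 11.5 FPKM in GA plus DEX and 10.8 and 10.9 FPKM in DMSO plus DEX, from at least 1069 and 1312 reads in GA plus DEX and 1561 and 1304 in DMSO plus DEX. The groups overlapped, and the log2 fold change was 0.02 (standard error 0.07, 95% interval -0.13 to 0.18, adjusted p = 0.764 from limma). The interval of Tnfrsf11a, the gene of the receptor before it in the pathway, was 0.79 to 1.08 and did not overlap with it. After the shift Nfatc1 was called lower (log2 fold change -0.21, 95% interval -0.36 to -0.05, adjusted p = 0.034), so a rise was called on neither scale. NFATC1 is also regulated by its location in the cell, which RNA does not show, and it is expressed in cells other than osteoclasts.
Its relatives and calcineurin, the phosphatase that activates them, changed by small amounts: all 14 were tested, with 7 higher and 2 lower and a median of 0.14 (4 and 5 after the shift). As deposited, the count lower was 1 when GA plus DEX replicate 1 or either of the DMSO plus DEX libraries was left out. Of all genes tested, 46.3% were called higher and 11.9% lower (median 0.19), and 19.5% and 27.9% after the shift. Nfatc2 had 10.2 and 9.46 FPKM in GA plus DEX and 5.91 and 6.03 FPKM in DMSO plus DEX, 1.65-fold higher. Itpr2, a calcium release channel, rose 1.84-fold, and Rcan1, a calcineurin regulator that NFAT itself induces, 1.44-fold. Nfatc4 and Rcan2 were 1.27-fold and 1.18-fold lower. Nfatc3 (adjusted p = 0.181), Nfat5 (adjusted p = 0.767) and the catalytic subunit gene Ppp3ca (adjusted p = 0.514) did not pass, of which Ppp3ca was called lower after the shift (adjusted p = 0.0178).
Transcription factors that act before or against NFATC1 were mostly higher as deposited, 10 of 11 tested out of 12, with 1 lower (median 0.38). Of all genes tested 46.3% were then called higher. After the shift 3 were higher and 1 lower, where 19.5% of all genes tested were called higher and 27.9% lower. Spi1, which encodes PU.1, had 80.3 and 75.9 FPKM in GA plus DEX and 46.6 and 52.9 FPKM in DMSO plus DEX, 1.57-fold, and Tfec, a relative of MITF, rose 1.71-fold. Mitf rose 1.22-fold as deposited only (adjusted p = 0.861 after the shift). Bcl6 and Irf8, brakes on osteoclast formation, were 1.47-fold and 1.29-fold higher, of which Irf8 did not pass after the shift (adjusted p = 0.157). Id2, an inhibitor of helix-loop-helix factors, was 1.43-fold lower. Prdm1, which represses brakes of this kind, was under the minimum, at 0.618 and 0.445 FPKM in GA plus DEX and 0.114 and 0.161 FPKM in DMSO plus DEX.

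**Figure D3:**
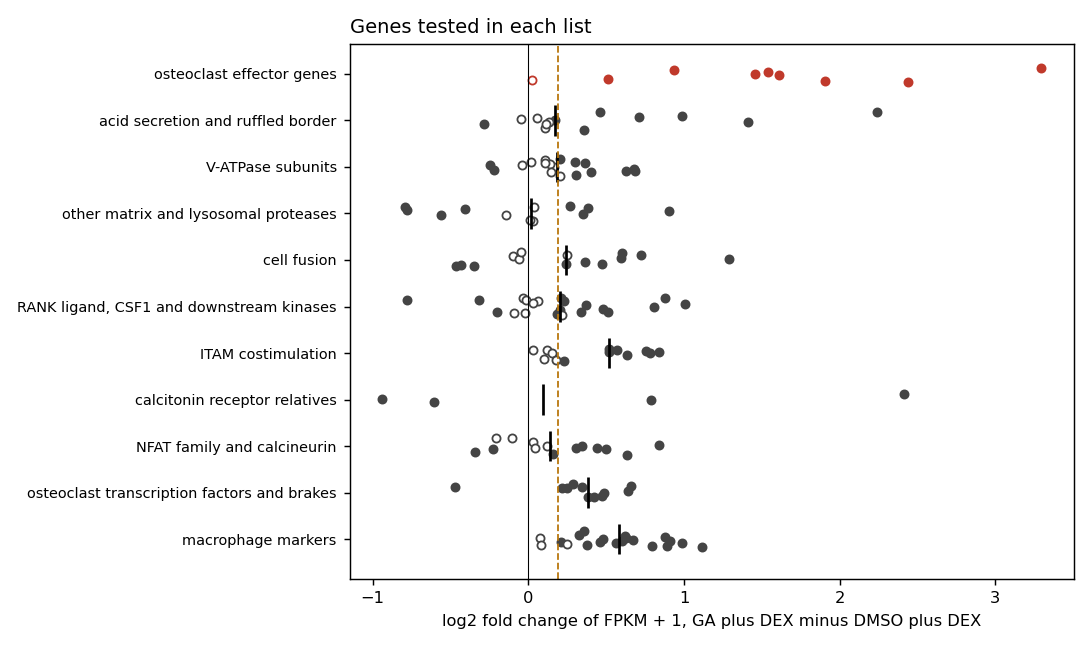
Log2 fold change of FPKM + 1, GA plus DEX minus DMSO plus DEX, of every gene tested in the osteoclast effector genes (red, top) and in 10 lists around them. Filled points passed the test and open points did not, black ticks are the medians of the 10 lists and the dashed line is the median of all genes tested (0.19). The effector genes reach from Nfatc1 at 0.02 to Mmp9 at 3.30, and the list medians include 0.58 for the macrophage markers, 0.19 for the V-ATPase and 0.02 for the proteases.

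The genes did not keep one order of levels. In GA plus DEX, Tnfrsf11a, Atp6v0d2 and Nfatc1 lay between 10.7 and 13.1 FPKM and neighbours among them overlapped, as did Calcr and Oscar at 2.59 to 3.21 FPKM. In DMSO plus DEX, Nfatc1 (10.8 and 10.9 FPKM), Tnfrsf11a (5.83 and 5.87 FPKM) and Atp6v0d2 (3.49 and 3.04 FPKM) were separate, while Dcstamp, Oscar and Calcr, at 0.296 to 0.501 FPKM, overlapped from neighbour to neighbour.
Within GA plus DEX, replicate 1 had the higher value for 8 of the 10 genes and for 20 of the 22 macrophage markers. Within DMSO plus DEX, replicate 1 was the higher for 4 of the 10. The same count over all genes was not made, so these counts do not show that members and macrophage markers vary together.

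Set against the macrophage markers of the same library, the 10 genes kept their differences in part. Their summed FPKM per 1000 FPKM of the 22 markers was 168 and 181 in GA plus DEX and 77.4 and 78.3 in DMSO plus DEX, a ratio of 2.24, with Mmp9 and Ctsk making up most of the sum. With 2 libraries a group no exact permutation test could pass, so these are values without a test. Ocstamp had 0.322 and 0.320 per 1000 in GA plus DEX and 0.0191 and 0.0327 in DMSO plus DEX, a ratio of 12.4. Mmp9 (7.64), Dcstamp (7.45), Calcr (6.37), Oscar (5.28), Acp5 (4.24) and Atp6v0d2 (2.80) followed. The ratio was 1.57 for Tnfrsf11a, 1.08 for Ctsk and 0.777 for Nfatc1. Against Csf1r, Cd68, Adgre1, Ptprc and Mpeg1 alone it was 10.8 for Ocstamp, 1.35 for Tnfrsf11a, 0.931 for Ctsk and 0.668 for Nfatc1, so the direction for Ctsk depended on the markers chosen. These macrophage genes themselves changed unequally, from Mpeg1 and Cd14, which did not pass (adjusted p = 0.29 and 0.521), to Mrc1, the mannose receptor (2.18-fold). Lyz2, C1qa, C1qb and C1qc had the highest FPKM of the 22 and so weigh most in their sum. These genes rose 1.25-fold, 1.16-fold, 1.30-fold and 1.28-fold, while Csf1r and Adgre1 rose 1.87-fold and 2.04-fold. The ratios to the 22 markers therefore rest largely on abundant genes that changed little.

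**Figure D4:**
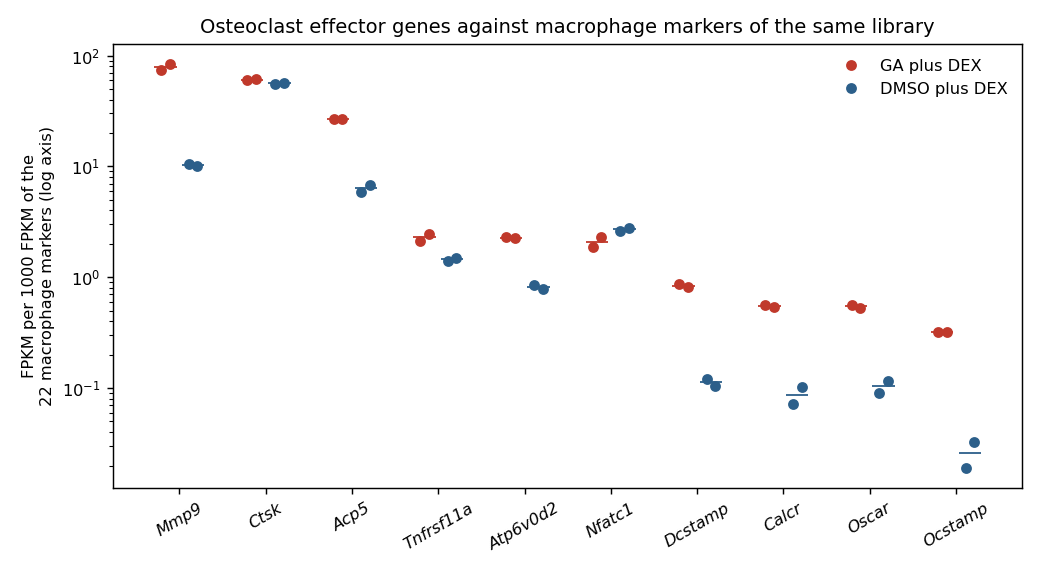
FPKM of each osteoclast effector gene per 1000 FPKM of the 22 macrophage markers of the same library (log axis, genes in the order of their GA plus DEX level), in GA plus DEX (red, left) and DMSO plus DEX (blue). Points are libraries and bars are means. Ocstamp shows the widest gap (0.322 and 0.320 in GA plus DEX, 0.0191 and 0.0327 in DMSO plus DEX), Ctsk is nearly level and Nfatc1 is lower in GA plus DEX.

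Markers of other cell types that adherent marrow can hold ranged from nearly absent to abundant. None of 5 B cell, 5 T cell and 6 erythroid markers reached 1 FPKM in any library. Of 8 neutrophil markers 2 were tested and 1, S100a8, was higher, at 1.98 and 1.57 FPKM in GA plus DEX and 0.523 and 0 in DMSO plus DEX, having passed the minimum only through GA plus DEX. All 10 osteoblast markers were lower (median -0.66), where 11.9% of all genes tested were called lower, and 27.9% after the shift. Of 14 mBMSC markers tested out of 15, 7 were lower and 4 higher (with the shift, 10 and 3, median -0.27 as deposited). All 9 adipocyte markers were higher (median 5.74), where 46.3% of all genes tested were called higher, and 19.5% after the shift. Among the adipocyte markers Plin1, Cidec and Cfd passed the minimum only through GA plus DEX and could only be higher. Among the mBMSC markers that rose were Cxcl12 (4.12-fold), Vcam1 (3.94-fold) and Lepr (2.59-fold). The largest falls in that list were those of Ly6a (3.35-fold lower in GA plus DEX), Col1a1 (2.28-fold) and Col1a2 (1.93-fold). Adipoq, the gene of the adipocyte hormone adiponectin, had 1355 and 1165 FPKM in GA plus DEX, against 3.37 and 4.29 FPKM in DMSO plus DEX. The summed FPKM of the osteoblast markers was 12174 and 12731 in GA plus DEX and 19825 and 20728 in DMSO plus DEX, and that of the mBMSC markers 32919 and 38349 in GA plus DEX and 77690 and 70615 in DMSO plus DEX. Their part in the values of the osteoclast genes was not tested.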

How the data were processed

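Poly(A) RNA of mBMSCs was sequenced. The authors deposited FPKM values, 1 column per library, each matched to a sample by title. HTSeq 0.6.1, TopHat2 2.0.12, Bowtie2 2.2.3 and the build mm9 appear in the submitters' processing notes, without roles. Annotation, gene lengths and use of strand are not stated, nor is any scaling beyond FPKM. Symbols came from a table of gene names (46488 of 47069 identifiers). No gene coordinates are given, since the annotation at hand was GRCm38, and promoter letters are RefSeq's on GRCm38.p6.

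Depth was taken from the FPKM step of genes with 1 read, shared by 1279 to 1368 genes per library when multiplied by GENCODE M21 exon lengths. The smallest gene length that gave whole reads in all libraries, within 1e-04 of a read, was then used, and the reads summed to 98.43% to 98.55% of that depth. Between replicates the chi-square per gene had a mean of 6.1 and a median of 1.06 in GA plus DEX, and a mean of 10.3 and a median of 0.903 in DMSO plus DEX. Sampling alone gives a mean of 1, which both means exceeded. It gives a median lower than the mean, so the medians are not to be read against 1. All 4 libraries were kept.

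The main test was limma 3.58.1 in R 4.3.3 (lmFit and trended eBayes, two-sided, p-values adjusted by Benjamini-Hochberg over the 12174 genes averaging 1 FPKM or more) on log2(FPKM + 1), with 5.38 prior and 2 residual degrees of freedom. It was tested on simulated data in which the changed genes had many reads and the median was not shifted. This does not speak for members with few reads. A fold was given only where each group held more than 3 reads, and intervals are at 95%. The members and the 20 gene lists were chosen with earlier results of these data known. Lists are described by counts and medians. Genes named were the members, fixed partners such as Nfatc2 and Atp6v0d1, and per list up to 3 of the largest changes in each direction and up to 2 abundant genes that did not pass. Any other gene named was chosen after its values were seen, and some genes under the rule are not reported here. The alternatives changed the pseudocount (0.1 and 5) or the minimum (none and 5 FPKM), or used libraries shifted to one median, quantile normalization, a denominator without the 10 most abundant genes, limma without the trend, each library left out, the replicate number as a block, and limma's voom on recovered reads with median-of-ratios scaling. Leaving out libraries for the ratio to macrophage markers was chosen after seeing the data. Figures were drawn with matplotlib 3.10.9.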

Additional observations from a re-analysis of the deposited data

How the results depend on the processing

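The count of osteoclast effector genes called higher was 8 under 11 of the 14 alternatives and under each library left out, and 8 to 8 without one library. It was 9 when the 10 most abundant genes were taken out of the denominator and 9 with no minimum FPKM, where Ocstamp entered the test, and 5 with a minimum of 5 FPKM, where Calcr, Dcstamp and Oscar left it. The count called lower, 0 as deposited (0 also at an unadjusted p under 0.05), was 1 with libraries shifted to one median, 1 with quantile normalization and 1 with voom on recovered reads, each time Nfatc1. The log2 fold change of Nfatc1 was -0.21 after the shift, -0.21 with quantile normalization, -0.18 with voom (adjusted p = 0.0304), -0.14 without the 10 most abundant genes (adjusted p = 0.132) and -0.0235 without GA plus DEX replicate 2 (adjusted p = 0.822), with a range of -0.0235 to 0.0724 over the libraries left out. The scalings differ by construction in where they put the median gene. The other members kept a positive change past the threshold in every alternative that tested them, with the largest adjusted p = 0.0153 for Ctsk, although the size for low genes moved over the alternatives, pseudocounts and voom among them (Calcr 0.57 to 2.87, Dcstamp 0.79 to 3.04, Oscar 0.54 to 2.56). Calcr, Dcstamp and Oscar met the minimum of 1 FPKM only through GA plus DEX, as did Ocstamp without the 10 most abundant genes. Under that minimum they could only be higher, so their sign was open only in the fit with no minimum. The ratio to macrophage markers was 1.93 with 5 markers and 2.16 to 2.33 with a library left out.

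Over all genes, 5639 were higher and 1454 lower as deposited, 2380 and 3392 after the shift, 2394 and 3273 with quantile normalization, 2931 and 3056 with voom, and 3143 and 2619 without the 10 most abundant genes. Of the counts of lists under alternatives, 289 stayed within 1.5 times and 47 moved further. With the replicate block 8 members were higher and none lower, and over all genes 5528 and 1433. Libraries with the same number did not deviate together (correlation -0.025 across genes). With 2 libraries a group this cannot decide whether the numbers pair them. Depth limits Ocstamp, Oscar, Dcstamp and Calcr, with 9 to 31 reads per DMSO plus DEX library.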

Other observations

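Some marker genes of further lineages were also higher in GA plus DEX. Pf4, the platelet chemokine, had 101 and 88.0 FPKM in GA plus DEX and 45.8 and 42.7 FPKM in DMSO plus DEX, 2.13-fold (adjusted p = 2.39e-05 from limma), whereas the megakaryocyte genes Gp9 and Ppbp were at or near 0 in all libraries, Itga2b did not pass (adjusted p = 0.305) and Gp1bb was 1.37-fold lower. Of 5 endothelial markers 2 were tested, and both were higher, each reaching the minimum only through GA plus DEX: Pecam1 had 2.194 and 1.495 FPKM in GA plus DEX and 0.534 and 0.503 FPKM in DMSO plus DEX, and Cdh5 had 2.35 and 1.80 FPKM in GA plus DEX and 0.743 and 0.722 FPKM in DMSO plus DEX.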
